A study of Mus musculus with 75 samples.

Results

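The comparison described here set liver tumors against non-tumor liver in 10-month-old male mice that had the same maternal exposure to tributyltin (TBT). Its members were the columns of the deposited count table whose labels gave an age of 10 months and a risk group of either Tumor (7 libraries) or low risk TBT (5 libraries), so 12 of the 75 libraries of the series. TBT is an organotin compound that activates the nuclear receptors PPARγ and RXR. The series profiled livers of TBT-exposed and vehicle mice at several ages by sequencing of total RNA.

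All mice were C57Bl/6 males. The dams took TBT with their drinking water, at 3.07 µM for a daily dose of 0.5 mg/kg, until their pups were weaned, so in both groups the exposure had ended long before sampling. All 12 libraries were in sequencing batch 1. Other 10-month groups are given as levels only: 6 livers of vehicle mice, 6 libraries of uninvolved liver labelled high risk, and 1 vehicle library labelled as a tumor. A pair of uninvolved libraries, numbers 3 and 6, differed far less than any other pair and was counted as 1 sample. At 5 months, 10 livers labelled high risk TBT and 16 labelled low risk TBT came from 2 sequencing batches. How livers were sorted into risk groups, what kind of tumor was taken and whether each library is a separate mouse are not stated in the labels, so the p-values below measure the spread between these samples. Library numbers are those in the labels and have no order.

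Adult hepatocytes export albumin, apolipoproteins and clotting proteins, make cholesterol and bile acids, and detoxify drugs. Their work is divided along the lobule: cells near the central vein, under Wnt signals, make glutamine and hold many cytochromes P450, while cells near the portal vein make urea and glucose. In male mice, pulses of growth hormone also set a sex-specific pattern, with major urinary proteins and certain steroid-metabolising enzymes high. Liver tumors of mice are known to leave parts of this adult programme, to re-express genes of fetal liver and to divide.

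Depth was similar, with totals of 22502522 to 27894659 counts in tumor libraries and 26428664 to 33486835 in low-risk libraries. Mitochondrial genes took 2.64% to 3.46% of counts in tumors and 2.94% to 3.08% in low-risk livers. Hepatocyte markers were abundant in all 12 libraries, with the 12 markers summing to 94388 to 154440 CPM (counts scaled to a common library size) in tumors and 145320 to 160020 CPM in low-risk livers. Tumors differed more among themselves: pairwise correlations of log2 counts, not scaled to CPM, across genes were 0.931 to 0.976 among tumors and 0.979 to 0.987 among low-risk livers. Over the 9881 genes averaging 5 CPM or more, the median SD of log2 CPM was 0.20 among tumors and 0.13 among low-risk livers, and it was larger among tumors for 7956 genes.

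The promoters of 3 genes are shown first because their genes stand for 2 groups described below, cell division and cystine uptake. Each is the 120 bases before the gene start in RefSeq (GRCm38.p6), written 5′ to 3′ on the gene's own strand. For Top2a (chr11:99024190-99024309, minus strand) and Kif11 (chr19:37376262-37376381, plus strand), capitals mark the letters TTTGAA, the core of the CHR element, and CCAAT, read on either strand. For Slc7a11 (chr3:50443614-50443733, minus strand), capitals mark TGATGNAA, a form of the element that binds C/EBP-ATF dimers, read on either strand.
Top2a: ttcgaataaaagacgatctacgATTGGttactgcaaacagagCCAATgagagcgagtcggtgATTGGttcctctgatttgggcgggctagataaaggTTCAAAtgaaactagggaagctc
Kif11: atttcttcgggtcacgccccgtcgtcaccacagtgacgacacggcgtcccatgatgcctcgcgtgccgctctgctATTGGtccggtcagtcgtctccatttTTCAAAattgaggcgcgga
Slc7a11: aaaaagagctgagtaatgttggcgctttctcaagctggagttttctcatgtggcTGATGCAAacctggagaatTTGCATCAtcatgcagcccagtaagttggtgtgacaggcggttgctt

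The question was which genes differ between tumors and livers of equally exposed mice labelled low risk. The tumors held more RNA of cell division, glutathione and cystine genes, fetal and ductal genes, interferon-stimulated genes and markers of lipid-laden macrophages. Low-risk livers held more of major urinary proteins, sterol synthesis enzymes, some bile acid importers and resident Kupffer cell markers. Of 15557 genes tested with edgeR's quasi-likelihood test, 3319 rose and 2386 fell at a Benjamini-Hochberg adjusted p under 0.05, which is 21.3% and 15.3% of all genes tested, and 36.7% in either direction. The median log2 fold change over all genes was 0.01. Large changes were mostly upward: 1865 of the called genes rose and 297 fell by more than 2-fold, and 314 rose and 22 fell by more than 8-fold. All 7 tumors lay above all 5 low-risk livers for 1440 genes (9.26% of those tested) and below them for 1363 (8.76%). In all that follows, a fold change is log2 of tumor over low-risk and levels are CPM. SE is the standard error implied by the test, the absolute log2 fold change divided by the square root of its F statistic. Adjusted p is edgeR's with Benjamini-Hochberg adjustment over all genes tested. Low-risk values are in the order of libraries 2, 4, 8, 9 and 10. CPM is not divided by gene length, so levels are compared between libraries and never between genes.

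Among genes that averaged 5 CPM or more and did not overlap between the groups, the largest rise was that of Spink1 (ENSMUSG00000024503, chr18:43728082-43737557, minus strand), a trypsin inhibitor. Its low-risk levels were 0.0711, 0.0798, 0.0823, 0.0658 and 0.0353 CPM, 9 counts in all, and its tumor levels were 0.446 to 81 CPM with a median of 7.4, 4298 counts in all (log2 fold change 8.27, SE 1.69, adjusted p = 0.00265). Every tumor was above every low-risk liver, as the rule required, but the tumors spanned from 0.446 CPM in tumor 7 to 81 CPM in tumor 11. Lrtm2 (ENSMUSG00000055003, chr6:119315133-119330766, minus strand), a leucine-rich repeat membrane protein, had 0, 0, 0.658, 0 and 0 CPM in low-risk livers and 8.67 to 25.1 CPM with a median of 18.5 in tumors (log2 fold change 7.14, SE 0.69, adjusted p = 3.94e-05). It was at 0 in 4 of the 5 low-risk livers, so the size of its fold change depends on the prior count of the fit, as does that of Spink1. Ly6d (ENSMUSG00000034634, chr15:74762056-74763620, minus strand), a GPI-anchored surface protein, went from 1.31, 1.92, 4.57, 1.94 and 2.79 CPM to 15.7 to 330.5 CPM with a median of 170.2 (log2 fold change 6.01, SE 0.72, adjusted p = 0.000141). The other named genes at the top were Rasal1, a Ras GTPase-activating protein (log2 fold change 5.89), Shc2, an adaptor of receptor tyrosine kinases (5.63), Diaph3, a formin that builds actin filaments (5.72), and Elovl7, an elongase of fatty acids (5.57). Cyp2a4, Slc7a11 and Gpnmb, also in this group of 10, are described with their pathways.

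At the other end, 6 of the 10 largest falls by the same rule were genes of the major urinary protein cluster. Hsd3b5 (ENSMUSG00000038092, chr3:98618634-98630252, minus strand), a male-specific steroid reductase of the liver, stood at 401, 181, 292, 287 and 98.5 CPM in low-risk livers and at 1.06 to 21.8 CPM with a median of 5.77 in tumors (log2 fold change -4.79, SE 0.68, adjusted p = 0.000354). Susd4, a complement inhibitor, fell by 3.67 on the log2 scale (adjusted p = 0.000318) and Acpp, an acid phosphatase, by 3.19 (adjusted p = 0.00217). Cd163 (ENSMUSG00000008845, chr6:124304656-124330527, plus strand), the haemoglobin scavenger receptor of resident macrophages, was at 35, 30.9, 22.6, 25.4 and 21.1 CPM in low-risk livers and 0.282 to 1.8 CPM with a median of 1.29 in tumors (log2 fold change -4.36, SE 0.28, adjusted p = 2.22e-06). The groups did not overlap for any of these 4 genes, which was a condition of the rule that named them.

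**Figure D1:**
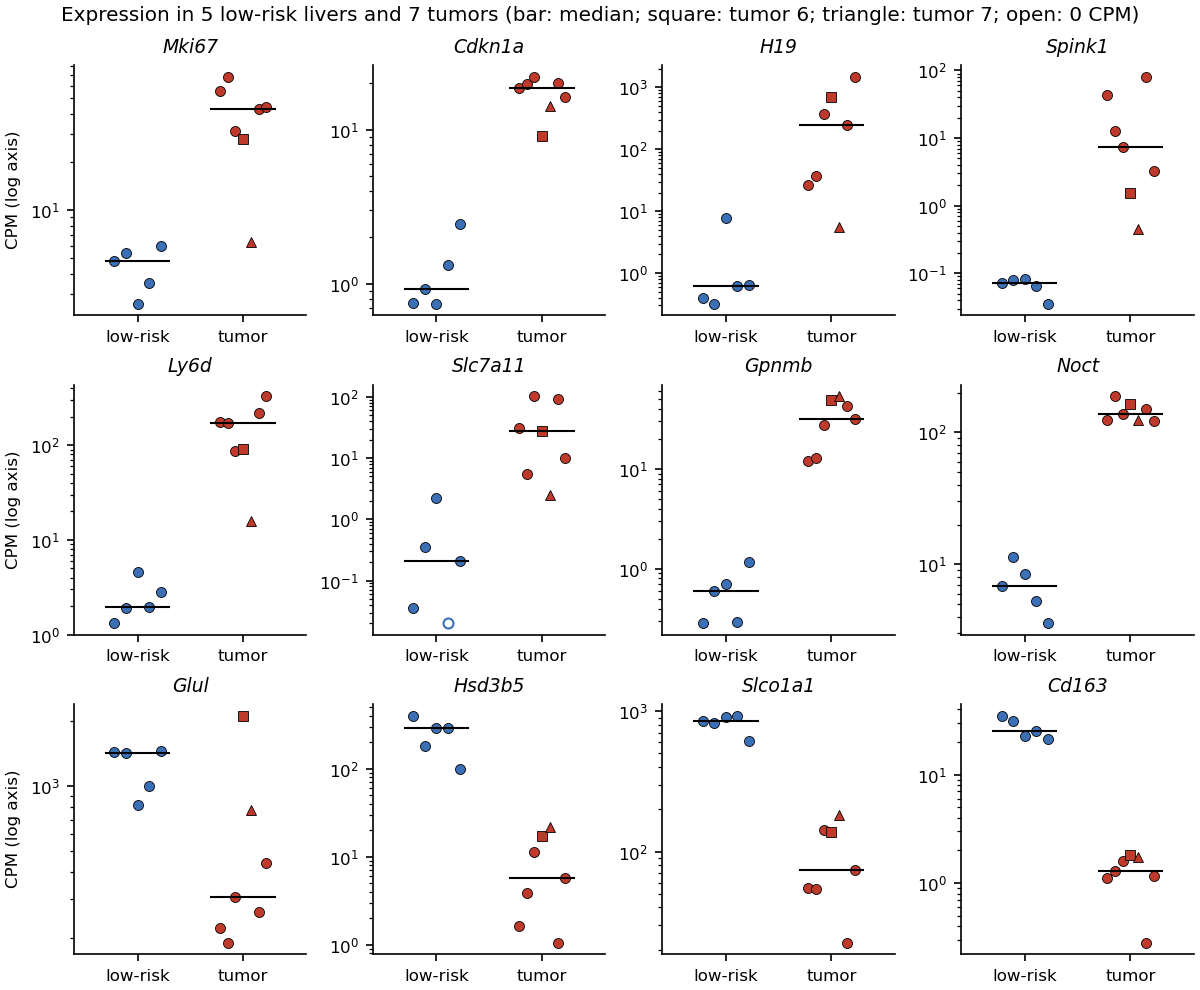
Levels of 12 genes in the 5 low-risk livers (blue) and 7 tumors (red), in CPM on a log axis; each symbol is 1 library, the bar is the group's median, squares mark tumor 6, triangles tumor 7, and the open symbol a library at 0 CPM. The groups overlap for H19 and Glul and are apart for the other 10 genes; for Glul, tumor 6 (2116 CPM) lies above all low-risk livers.

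Cells that divide need the mitotic kinases and motors, the replication helicase and the nucleotide enzymes, and p53 targets such as Cdkn1a can stop them. All 22 of the 22 mitosis genes rose in the tumors, with a median log2 fold change of 3.52 against 0.01 over all genes. Mki67 (ENSMUSG00000031004, chr7:135689784-135716361, minus strand), the Ki-67 proliferation antigen, was at 4.8, 5.39, 2.59, 3.49 and 5.94 CPM in low-risk livers and 6.34 to 68.4 CPM with a median of 43 in tumors (log2 fold change 3.20, SE 0.49, adjusted p = 0.000462). Top2a (ENSMUSG00000020914, chr11:98992943-99024189, minus strand), the topoisomerase that untangles mitotic chromosomes, was at 2.1, 3.23, 1.44, 2.86 and 4.17 CPM and 3.62 to 33.6 CPM with a median of 32 (log2 fold change 3.27, SE 0.48, adjusted p = 0.000378). In both, tumor 7 was the lowest tumor: its 6.34 CPM of Mki67 lay just above the highest low-risk liver and its 3.62 CPM of Top2a within their range. Ccnb1, the cyclin that starts mitosis, had the largest fold change of the list (5.40, adjusted p = 0.000514), and Kif11, the motor that separates spindle poles, had 1.4 to 2.37 CPM in low-risk livers and 1.87 to 13.6 CPM with a median of 10.2 in tumors (2.35, adjusted p = 0.000926). Summed over the 22 genes, 6 tumors held 139.8 to 315.8 CPM, tumor 7 held 29.4 and the low-risk livers 15.3 to 29.2. The tumors lay entirely above the low-risk livers for 7 of the 22 genes, and tumor 7 was inside their range for the other 15.

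Of 19 DNA replication genes, 13 rose and none fell, with a median of 0.77. The changes were smaller than for mitosis: Mcm5, a subunit of the replicative helicase, rose by 1.74 (adjusted p = 0.00294), Rrm2, a ribonucleotide reductase subunit, by 1.59 (adjusted p = 0.00468), and Pcna, the sliding clamp, by 0.28 (adjusted p = 0.0441). Uhrf1, which guides DNA methylation to new strands, went from 0.853, 0.998, 0.247, 0.559 and 1.2 CPM to 1.07 to 8.14 CPM with a median of 4.9 (log2 fold change 2.72, SE 0.45, adjusted p = 0.000614), with tumor 7 inside the low-risk range. Gins2 and Cdc6, which load and start the helicase, rose by 2.79 (adjusted p = 0.000647) and 2.59 (adjusted p = 0.00123). No replication gene had all tumors above all low-risk livers.

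Among 16 p53 targets and senescence genes, 11 rose and none fell (median 0.81), and for 6 of them the groups did not overlap. Cdkn1a (ENSMUSG00000023067, chr17:29090976-29100727, plus strand), the p21 inhibitor of cyclin-dependent kinases, was at 0.746, 0.918, 0.741, 1.32 and 2.44 CPM in low-risk livers and 9.09 to 22.1 CPM with a median of 18.7 in tumors (log2 fold change 3.83, SE 0.32, adjusted p = 1.17e-05). Unlike the mitosis genes, Cdkn1a was high in tumor 7 as well (14.2 CPM). Phlda3, an inhibitor of AKT, rose by 3.74 (adjusted p = 7.69e-05), and Plk2, a kinase of centriole duplication, by 0.93 with tight groups of 15.8 to 17.9 CPM against 23.1 to 42.5 CPM (adjusted p = 0.000232). Mdm2, the ubiquitin ligase of p53, rose by 0.23 (adjusted p = 0.0376). Cdkn2a, the Ink4a/Arf locus, was at most 0.32 CPM in low-risk livers and reached 0.893 CPM in tumor 12 (1.76, adjusted p = 0.0191).

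In the RefSeq windows from 250 bases before to 50 after the gene start, TTTGAA was found on either strand for 13 of the 17 mitosis genes with a window (76.5%), against 18.1% of all 27025 windows and 12.5% of the 11181 windows of genes tested. CCAAT was found for 15 of the 17 (88.2%), against 37.9% of all windows and 38.6% of those of genes tested. Both occurred together in 13 of the 17 mitosis windows, in 7.12% of all windows and in 5.13% of those of genes tested. Over all genes that rose, 13.3% of windows held TTTGAA, and over those that fell, 11.3%. E2F letters (TTCCCGC or TTGGCGC) were in 8 of 15 replication windows (53.3%), in 6.93% of all windows and in 11.8% of those of genes tested. TTTGAA and CCAAT can share 1 base at an end, and a match is a description of the sequence only.

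Fetal liver and growing tumors are known to express a common set of genes, several of them imprinted. Of 20 oncofetal genes, 17 were tested, 15 rose and none fell (median 2.23), and 12 had all tumors above all low-risk livers. The gene lists, this one included, were chosen with earlier results of these data known, so such counts are not independent support. Members besides Spink1 and Ly6d included Golm1, a Golgi membrane protein (2.06 to 2.84 CPM in low-risk livers, 5.27 to 52.7 in tumors; 3.28, adjusted p = 0.000438), Scd2, the desaturase of fetal liver (3.22, adjusted p = 0.000501), and Sox4, a progenitor transcription factor (1.56, 1.56, 1.69, 1.55 and 2.4 CPM against 4.42 to 16.2 CPM with a median of 10.9; 2.74, adjusted p = 6.25e-05). Prom1 and Cd24a, surface markers of progenitor cells, rose by 2.56 (adjusted p = 4.61e-05) and 2.08 (adjusted p = 7.2e-05). Afp, the fetal counterpart of albumin, was only modestly higher: 3.16, 3.27, 3.74, 2.93 and 3.36 CPM in low-risk livers and 3.92 to 17.2 CPM with a median of 5.24 in tumors (log2 fold change 1.24, SE 0.36, adjusted p = 0.0152). Gpc3, a glypican used as a marker of human hepatocellular carcinoma, was at 1.49, 1.76, 2.43, 3.12 and 2.79 CPM and 1.03 to 9.88 CPM with a median of 2.42 and was not called (log2 fold change 0.52, SE 0.47, adjusted p = 0.413). Its highest value, 9.88 CPM, was in tumor 6. Without that tumor Gpc3 was still not called (log2 fold change -0.0779, adjusted p = 0.849), and 1 other member of the list fell.

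Of 18 imprinted genes, 14 were tested, 5 rose and none fell (median 0.37). Leaving out low-risk liver 4, 8, 9 or 10 lowered that count to 3, and without tumor 6 it was 5 higher and 1 lower. H19 (ENSMUSG00000000031, chr7:142575529-142578143, minus strand), a maternally expressed noncoding RNA abundant in fetal liver, was at 0.391, 0.319, 7.78, 0.625 and 0.636 CPM in low-risk livers. The tumors ran from 5.53 CPM in tumor 7 through 26 and 36.5 in tumors 1 and 3 to 245, 378, 709 and 1493 in tumors 11, 5, 6 and 12 (log2 fold change 7.79, SE 1.65, adjusted p = 0.00326). Tumor 7 lay below low-risk liver 8 (7.78 CPM), so the groups overlapped. Igf2, the fetal growth factor next to H19, was too low to be tested: it reached 9.0 CPM in tumor 5 and 4.94 in tumor 6 and was at most 0.247 CPM in the other tumors and 0.0355 in low-risk livers. A single tumor also held much RNA of the Dlk1 and Meg3 cluster of chromosome 12. In tumor 6 there were 39.6 CPM of Dlk1, 24.7 of Meg3, 97.3 of Rian and 4.98 of Mirg, against at most 0.730, 1.6, 3.79 and 0.353 CPM in the other tumors. Grb10, an inhibitor of insulin and growth factor receptors, moved less but in every tumor, from 5.87 to 6.34 CPM to 7.45 to 11.8 CPM (0.70, adjusted p = 0.00064).

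Cells under oxidative stress use the transcription factor NRF2 to raise glutathione synthesis, conjugation and quinone reduction, and the integrated stress response uses ATF4 to raise amino acid import and synthesis. Of 21 NRF2 targets, 12 rose and 1 fell (median 0.89), and 10 had all tumors above. Conjugating and reducing enzymes and transporters were among them. Gsta1, a glutathione S-transferase, was at 0.497, 0.719, 0.905, 0.592 and 1.02 CPM in low-risk livers and 3.35 to 75.1 CPM with a median of 24.6 in tumors (log2 fold change 5.53, SE 0.69, adjusted p = 0.00017). Gstm3 was at 17.7, 26.3, 33.7, 11.4 and 21.4 CPM and 50.9 to 825 CPM with a median of 335 (log2 fold change 4.26, SE 0.59, adjusted p = 0.000296). The groups were apart for both, and in both tumor 7 was the lowest tumor by a wide gap. Nqo1, a quinone reductase, rose by 2.82 (adjusted p = 0.000949), Cbr3, a carbonyl reductase, by 4.57 (adjusted p = 0.00109) and Srxn1, which repairs peroxiredoxins, by 1.82 (adjusted p = 0.000903). The classical members Hmox1 (0.38, adjusted p = 0.0938), Gclc (0.29, adjusted p = 0.335) and Gclm (0.18, adjusted p = 0.183) did not pass the test. Me1, the NADP malic enzyme shared with lipogenesis, was the member that fell (-1.21, adjusted p = 0.000438). Gst genes of 1 class are close copies, so reads may have been split between them.

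Slc7a11 (ENSMUSG00000027737, chr3:49892526-50443614, minus strand), the cystine importer that both NRF2 and ATF4 are known to induce and whose upstream sequence is printed above, was at 0.0355, 0.359, 2.26, 0 and 0.212 CPM in low-risk livers. In tumors it was at 2.45 to 103 CPM with a median of 27.5 (log2 fold change 6.18, SE 1.25, adjusted p = 0.00244). Tumors 5 and 11 were highest at 103 and 91 CPM, and tumor 7, at 2.45 CPM, was close to low-risk liver 8 at 2.26 CPM. Of the 20 integrated stress response genes, 8 rose and 1 fell (median 0.62). Atf3, a stress-induced repressor, went from 0.675, 1.4, 1.03, 0.986 and 2.54 CPM to 4.55 to 18.4 CPM with a median of 8.12 (2.85, adjusted p = 0.000378). Mthfd2 and Psat1, of mitochondrial folate and serine synthesis, rose by 1.74 (adjusted p = 0.000627) and 2.23 (adjusted p = 0.00211), and Ddit3, which encodes CHOP, by 0.65 (adjusted p = 0.00137). Atf4 itself was the member that fell, by 0.25 (adjusted p = 0.0486), a call lost without low-risk liver 2, 8, 9 or 10 or without tumor 1, 3, 5 or 7. Asns, Chac1 and Fgf21 did not pass the test (adjusted p = 0.65, 0.363 and 0.216). TGATGNAA was in 6 of 18 windows of the list (33.3%), in 4.06% of all windows and in 2.35% of those of genes tested, and TGACNNNGC, the core of the antioxidant response element, in 6 of 19 NRF2 windows (31.6%), in 12.5% of all and in 14.7% of those of genes tested.

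The output of the MAPK pathway was mixed: of 17 tested genes of 19, 7 rose and none fell (median 0.49), and 3 had all tumors above. Dusp5, a phosphatase of ERK, rose (1.5, adjusted p = 0.00202), as did Ier3, an immediate early gene (1.92, adjusted p = 0.00217), while Dusp6 (0.22, adjusted p = 0.458), Spry2 (0.40, adjusted p = 0.182) and Spry4 (-0.32, adjusted p = 0.378) did not pass. Ccnd1, the G1 cyclin, was at 32.5, 20.8, 9.22, 14.5 and 11.7 CPM in low-risk livers and 56.2 to 113 CPM with a median of 77.4 in tumors (log2 fold change 2.28, SE 0.30, adjusted p = 0.000205). Without tumor 7, 1 member fell.

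Perivenous hepatocytes depend on Wnt signals, and Glul, Oat, Cyp2e1, Axin2 and Lgr5 are known markers of that state. Of its 16 genes only Cyp2e1 fell and none rose (median -0.60), but the tumors disagreed. Glul (ENSMUSG00000026473, chr1:153899944-153909723, plus strand), glutamine synthetase, was at 1437, 1425, 814, 999 and 1452 CPM in low-risk livers. It was at 189 to 443 CPM in tumors 1, 3, 5, 11 and 12, at 779 in tumor 7 and at 2116 in tumor 6 (log2 fold change -0.96, SE 0.55, adjusted p = 0.196). Most tumors, tumor 7 included, were therefore below every low-risk liver and 1 was above them all. Oat, ornithine aminotransferase, followed the same order, with 1454 CPM in tumor 6, 709 in tumor 7, 188 to 359 CPM in the other 5 tumors and 764 to 1239 in low-risk livers (-0.94, adjusted p = 0.114).

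Without tumor 6, 8 of the 16 genes fell: Glul (-1.72, adjusted p = 0.00213), Oat (-1.47, adjusted p = 0.00192), Cyp1a2 (-1.76, adjusted p = 0.000529), Lect2 (-1.02, adjusted p = 0.00121), Cyp2e1 (-1.78, adjusted p = 0.014), Sp5 (-1.18, adjusted p = 0.0179), Nkd1 (-0.64, adjusted p = 0.0348) and Slc1a2 (-1.35, adjusted p = 0.0461). Genes are listed for this exclusion alone, of a tumor already seen to run the other way. Their adjusted p values are therefore no support for a fall in the tumors as a group. Without tumor 7 the count of lower genes was 2 and without low-risk liver 9 it was 0. Tumor 6 had the highest tumor level of Axin2 (24.2 CPM; low-risk 7.69 to 13.3), Lgr5 (9.85; 5.39 to 7.35), Nkd1 (11.5; 3.7 to 6.86) and Rhbg, an ammonium transporter (12.3; 1.18 to 2.72), all above the low-risk range. Summed over the list, tumors 6 and 7 held 9103 and 8220.1 CPM, the other 5 tumors 1182 to 2723 and the low-risk livers 9311 to 11325.

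Cyp2e1, a P450 of ethanol and solvent metabolism, was at 7696, 5898, 7948, 7928 and 6504 CPM in low-risk livers and 585 to 6101 CPM with a median of 1679 in tumors (log2 fold change -1.55, SE 0.49, adjusted p = 0.0257), with tumor 7 (6101 CPM) inside the low-risk range. Of 14 urea cycle and periportal genes, 5 rose and none fell (median 0.36). They were Aldh1b1, a mitochondrial aldehyde dehydrogenase (43 to 94.8 CPM to 123 to 389; 2.12, adjusted p = 0.000258), the adhesion molecule Cdh1 (1.12, adjusted p = 0.00022), the serine dehydratases Sds (0.92, adjusted p = 0.00313) and Sdsl (0.86, adjusted p = 0.000834), and Hsd17b13 of lipid droplets (1.12, adjusted p = 0.00528). The urea cycle enzymes Cps1, Ass1, Asl, Arg1 and Otc did not pass the test, with fold changes between -0.15 and 0.27.

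**Figure D2:**
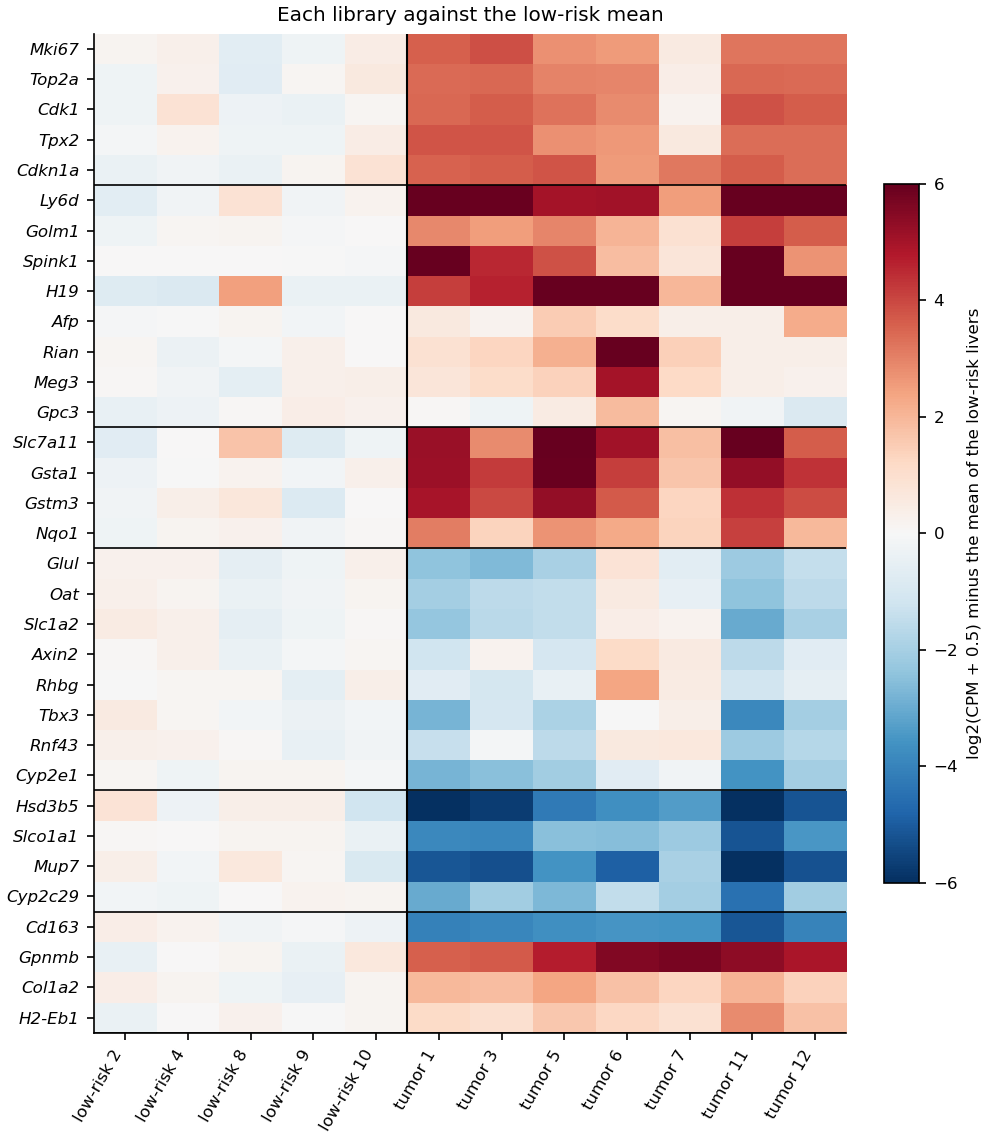
Heat map of log2(CPM + 0.5) minus the mean of the low-risk livers, with 1 column for each of the 5 low-risk livers and 7 tumors and genes in blocks by role; red is higher and blue lower, and colours end at 6 in either direction. Tumor 7 is pale in the cell cycle block, except for Cdkn1a, and in the glutathione block; in the perivenous block tumors 6 and 7 are pale or red for genes that are blue in most of the other 5 tumors, and the Rian row is strongest in tumor 6.

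The male pattern of the adult liver was reduced. Of 49 major urinary protein genes and pseudogenes, 29 were tested, 24 fell and none rose (median -2.58), and the family summed to 12986 to 24941 CPM in the low-risk livers and 2739.5 to 8769 CPM in the tumors. Mup7 (ENSMUSG00000073842, chr4:60066469-60070475, minus strand) was at 4698, 3252, 5558, 3944 and 1912 CPM in low-risk livers and 33.7 to 943 CPM with a median of 104 in tumors (log2 fold change -3.97, SE 0.73, adjusted p = 0.00134). Tumor 7 held the most of it and was still below every low-risk liver. Mup genes are near-identical copies, so how the authors' counting divided reads among them is uncertain and the family sum is the safer value. Mup21, an outlying member, went from 498, 258, 344, 441 and 282 CPM to 69.2 to 151 CPM with a median of 85.5 (-1.83, adjusted p = 0.000133), while Mup20, which encodes the pheromone darcin, did not pass the test (-0.09, adjusted p = 0.687).

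Of 16 male-biased genes, 8 fell and 1 rose (median -0.86), and for 6 all tumors were below. Slco1a1 (ENSMUSG00000041698, chr6:141907282-141946962, minus strand), an organic anion importer, was at 855, 822, 914, 929.6 and 614 CPM in low-risk livers and 22.4 to 181 CPM with a median of 73.4 in tumors (log2 fold change -3.09, SE 0.42, adjusted p = 0.000253). Others were Elovl3, a fatty acid elongase (-1.46, adjusted p = 0.00272), Cyp2d9, a testosterone hydroxylase (-0.97, adjusted p = 0.00111), and Cyp7b1, an oxysterol hydroxylase (-1.02, adjusted p = 0.0103). Cyp4a12b was the member that rose (0.64, adjusted p = 0.00312) and its neighbour Cyp4a12a did not pass (0.14, adjusted p = 0.479); without tumor 7, 2 members rose.

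Of 16 female-biased genes, 11 were tested, 6 rose and none fell (median 1.28), and all 6 had every tumor above. Cyp2a4 (ENSMUSG00000074254, chr7:26307169-26315088, plus strand), a steroid hydroxylase, was at 1.85, 2.56, 4.4, 0.756 and 1.38 CPM in low-risk livers and 23.9 to 513 CPM with a median of 101 in tumors (log2 fold change 6.32, SE 0.99, adjusted p = 0.000583). Its near copy Cyp2a5, a coumarin hydroxylase, went from 88.4 to 217 CPM to 372 to 1212 (2.42, adjusted p = 0.00031), and reads of the pair may be split. Fmo2, a flavin monooxygenase, rose by 1.28 (adjusted p = 0.000248). A1bg, not tested, was at 16.5 and 16.4 CPM in tumors 6 and 7, at 0.0982 to 0.240 in the other tumors and at 0.0355 to 0.106 in low-risk livers.

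In the growth hormone axis 4 of 16 genes fell and none rose (median -0.28); 1 rose without low-risk liver 8 or tumor 1. Ghr, the receptor, went from 805, 728, 876, 856 and 739 CPM to 458 to 552 CPM with a median of 503 (log2 fold change -0.63, SE 0.09, adjusted p = 0.000213), with no overlap. Igfals, which stabilises circulating IGF1, fell by 0.84 (adjusted p = 0.000582), Cish, a STAT5 target, by 1.37 (adjusted p = 0.00786) and Onecut1, a hepatocyte transcription factor, by 2.33 (adjusted p = 0.000913). Igf1 itself (-0.34, adjusted p = 0.114), Stat5b (-0.22, adjusted p = 0.14) and Socs2 (-0.67, adjusted p = 0.0561) did not pass. TTCNNNGAA, the letters of STAT sites, was in 0 of the 9 male-biased windows, which says nothing of sites elsewhere, and in 8.47% of all windows.

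Sterol synthesis had the highest share of lower genes among the metabolic lists. Of 24 genes of cholesterol synthesis and uptake, 22 fell and none rose (median -0.91), and 11 had all tumors below all low-risk livers. Hsd17b7 (ENSMUSG00000026675, chr1:169949535-169969241, minus strand), a sterol 3-ketoreductase, was at 115, 114, 97, 96.4 and 106 CPM in low-risk livers and 38.5 to 54.2 CPM with a median of 43.9 in tumors (log2 fold change -1.19, SE 0.09, adjusted p = 2.25e-06). Tm7sf2, a sterol reductase, fell by 1.70 (adjusted p = 1.28e-05) and Mvd, which makes isopentenyl diphosphate, by 1.5 (adjusted p = 0.000496). Here tumor 7 was not closest to the low-risk livers: at 16.2 CPM it was the lowest tumor for Nsdhl, and its list sum of 2314 CPM was within the tumors' 2240 to 3018, against 3485 to 5225 in low-risk livers. Low-risk liver 9 had the lowest low-risk sum. Srebf2, the transcription factor of this pathway, did not pass (-0.02, adjusted p = 0.89). TCACNCCAC, the letters of a sterol element, was in 1 of 16 windows of the list (6.25%) and in 1.22% of all.

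Of 20 lipogenesis genes, 12 fell and none rose (median -0.59), with Dgat2, which closes triglyceride synthesis (628, 569.7, 606, 581 and 586 CPM to 261 to 396 CPM with a median of 289; log2 fold change -0.91, SE 0.11, adjusted p = 7.69e-05), and Acacb (-1.37, adjusted p = 0.00172), Elovl5 (-0.84, adjusted p = 0.00238), Gpam (-0.65, adjusted p = 0.00239) and Mlxipl, the carbohydrate-response factor (-0.77, adjusted p = 0.000801), among them. Fasn, the fatty acid synthase, did not pass (-0.21, adjusted p = 0.6), and its low-risk levels were wide (629 to 1536 CPM). Among 14 lipid droplet genes 3 rose and 3 fell (median 0.18), shares near the 21.3% and 15.3% over all genes tested. Without low-risk liver 10 the count of higher genes was 6. Cidec, which fuses droplets, was at 4.48, 9.06, 1.98, 6.81 and 11.6 CPM in low-risk livers and 21.1 to 153 CPM with a median of 49.2 in tumors (log2 fold change 3.32, SE 0.54, adjusted p = 0.000674). Cd36, a fatty acid importer, rose by 1.74 (adjusted p = 0.0153) and Fabp4, a fatty acid-binding protein, by 3.01 (adjusted p = 0.0056), while G0s2, a lipase inhibitor, fell by 1.5 (adjusted p = 0.00289) and the droplet coat protein Plin2 by 0.53 (adjusted p = 0.0316). Fatty acid oxidation gave few calls: 4 of 20 genes fell and 1 rose (median -0.19), and without tumor 7 the count of lower genes was 8. Ehhadh, a peroxisomal enzyme, was the one that rose (1.26, adjusted p = 0.0128).

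**Figure D3:**
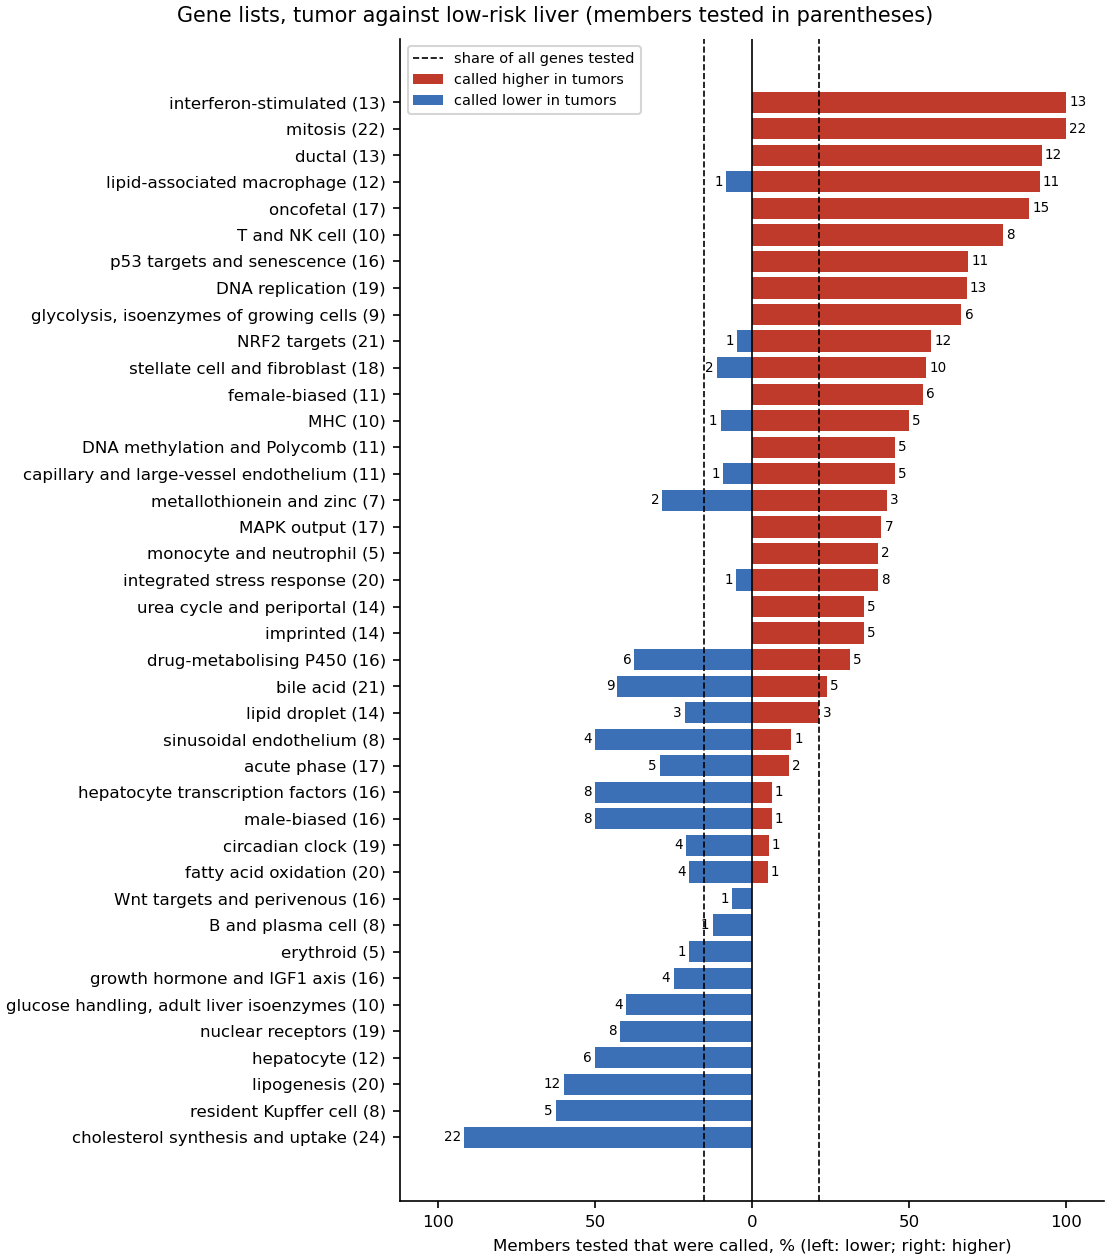
Share of the tested members of each gene list with 5 or more of them that was called higher (red, to the right) or lower (blue, to the left) in tumors, with the number of genes at each bar; dashed lines mark the shares over all genes tested, 21.3% higher and 15.3% lower. Mitosis and interferon-stimulated genes reach 22 of 22 and 13 of 13 higher, and cholesterol synthesis 22 of 24 lower. The lists were chosen with earlier results of these data known.

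TBT's known receptors were among 19 nuclear receptors, of which 8 fell and none rose (median -0.13); 1 rose without tumor 6 or 7. Rxra (ENSMUSG00000015846, chr2:27676440-27762957, plus strand) was at 616, 581, 506, 541 and 477 CPM in low-risk livers and 301 to 476 CPM with a median of 372 in tumors (log2 fold change -0.48, SE 0.11, adjusted p = 0.00465), and Rxrb and Rxrg fell by 0.18 (adjusted p = 0.0456) and 0.62 (adjusted p = 0.014). Pparg was at 11.5, 15.1, 9.05, 14.4 and 23 CPM and 9.02 to 31 CPM with a median of 19.1 and was not called (log2 fold change 0.48, SE 0.29, adjusted p = 0.215). Ppara, the regulator of fatty acid oxidation, fell by 0.67 (adjusted p = 0.00258), Nr1h4, the bile acid receptor FXR, by 0.78 (adjusted p = 0.000115), and Nr1i3, the drug sensor CAR, by 1.55 (adjusted p = 0.0141). Of 16 hepatocyte transcription factors 8 fell and 1 rose (median -0.37). Cebpa went from 469, 443, 392, 419.6 and 408 CPM to 231 to 326 CPM with a median of 298 (log2 fold change -0.54, SE 0.09, adjusted p = 0.000738), with no overlap, and Foxa1 fell by 0.73 (adjusted p = 0.00303), while Hnf4a did not pass (-0.04, adjusted p = 0.838) and Gata6 rose by 0.73 (adjusted p = 0.000179).

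Of 21 bile acid genes tested, 9 fell and 5 rose (median -0.48), and 7 had all tumors below. Among importers, Slc10a1, the bile salt importer NTCP, was at 753, 780.3, 768, 660.4 and 663 CPM in low-risk livers and 43.2 to 449 CPM with a median of 164 in tumors (log2 fold change -1.76, SE 0.40, adjusted p = 0.00473), and Slco1b2 fell by 1.28 (adjusted p = 0.000629). Among the synthetic enzymes, Cyp8b1, the sterol 12-hydroxylase, fell by 1.83 (adjusted p = 0.00477) and Cyp27a1 by 1.0 (adjusted p = 0.000276), and Cyp7a1, the rate-limiting enzyme of bile acid synthesis, did not pass (-0.62, adjusted p = 0.318). Of the exporters, Abcc4, also an NRF2 target, went from 4.01, 3.23, 3.54, 3.52 and 4.17 CPM to 9.64 to 61.6 CPM with a median of 35 (log2 fold change 3.23, SE 0.46, adjusted p = 0.000334), Abcc3 rose by 0.56 (adjusted p = 0.036), and Slc51b, a subunit of the basolateral exporter, by 3.37 (adjusted p = 0.00103), while Abcb11, the bile salt pump of the canaliculus, fell (-0.48, adjusted p = 0.00649). The other higher genes were Abcg5 (0.83, adjusted p = 0.00173) and Abcg8 (0.48, adjusted p = 0.0291), the sterol exporter. The count of higher genes was 3 without low-risk liver 8 or without tumor 5.

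Of 16 drug-metabolising P450 genes, 5 rose and 6 fell (median -0.04). Among the Cyp2c genes, Cyp2c29 was at 704, 670.1, 819, 933 and 887 CPM in low-risk livers and 35.6 to 284 CPM with a median of 187 in tumors (log2 fold change -2.30, SE 0.36, adjusted p = 0.00055), and Cyp2c37 (-3.05, adjusted p = 0.00573) and Cyp2c50 (-2.89, adjusted p = 0.00152) fell too, while Cyp2c55 rose (3.20, adjusted p = 0.000992). Cyp2b10, a target of CAR, was at most 0.106 CPM in low-risk livers and at 0.357 to 31.1 CPM in tumors (7.02, adjusted p = 0.00354). Cyp3a11, the main drug oxidase of mouse liver, was at 403, 995, 158, 1086 and 1295 CPM and 1736 to 8004 CPM with a median of 4361 (log2 fold change 2.65, SE 0.58, adjusted p = 0.00365). Low-risk liver 8 was the lowest of all for Cyp3a11, and every tumor was above every low-risk liver. These families hold close copies, so single genes are less certain than sums: the 9 Cyp3a genes summed to 856 to 1995 CPM in the low-risk livers and 2563 to 8824 CPM in the tumors.

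Of 9 glycolytic isoenzymes of growing cells, 6 rose and none fell (median 0.52), and all 6 had every tumor above: Hk2, a hexokinase (3.38, 2.79, 2.96, 2.1 and 2.93 CPM to 6.33 to 25.9 CPM with a median of 9.97; log2 fold change 2.01, SE 0.35, adjusted p = 0.000853), Pfkp (1.78, adjusted p = 0.0036), Pkm (0.82, adjusted p = 0.000438), Hk1 (0.56, adjusted p = 0.00227), the glucose transporter Slc2a1 (0.52, adjusted p = 0.00288) and Aldoa (0.33, adjusted p = 0.00217); 1 member fell without tumor 7 or 12. The list's sum did not follow these counts, at 985 to 1168 CPM in the low-risk livers and 803 to 1059 CPM in the tumors. Of 10 adult liver genes 4 fell and none rose (median -0.36), among them Pklr, the liver pyruvate kinase (-1.21, adjusted p = 0.00297), and Khk, which phosphorylates fructose (-0.82, adjusted p = 0.000329); the count was 2 without low-risk liver 4 or 8 or tumor 5. Among 17 acute phase genes 5 fell and 2 rose (median -0.38). Those that fell were the fibrinogen chains Fga, Fgb and Fgg (-0.41 to -0.50), Crp (-0.78, adjusted p = 0.00168) and Apcs (-0.81, adjusted p = 0.0212), and those that rose were Lcn2, lipocalin 2 (39.3, 5.63, 37.5, 1.84 and 6.61 CPM to 24.5 to 454 CPM with a median of 149.5; 3.23, adjusted p = 0.0179), and Orm2 (2.06, adjusted p = 0.0485). The second count was 1 when any 1 of low-risk livers 2, 4, 9 and 10 or tumors 1, 5, 11 and 12 was left out. Of the 12 hepatocyte markers 6 fell and none rose (median -0.41), and albumin did not pass (-0.33, adjusted p = 0.108).

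All 13 interferon-stimulated genes rose (median 1.43), and 11 had every tumor above. Rsad2, an antiviral enzyme, was at 8.88, 7.71, 6.5, 12.2 and 13.6 CPM in low-risk livers and 26.8 to 73 CPM with a median of 33.5 in tumors (log2 fold change 2.08, SE 0.26, adjusted p = 0.000165). Cxcl10, a chemokine for T cells, went from 1.46, 1.64, 1.4, 1.61 and 3.07 CPM to 4.73 to 14.1 CPM with a median of 7.19 (log2 fold change 2.24, SE 0.30, adjusted p = 0.000179), and Ifi27l2b rose by 2.96 (adjusted p = 6.19e-05). Of 10 MHC genes 5 rose and 1 fell (median 0.81), and the 5 were class II genes and their partners: H2-Eb1, an antigen-presenting chain, was at 18.8, 25.2, 30.3, 24.6 and 28.7 CPM and 47.9 to 184 CPM with a median of 60.5 (log2 fold change 1.68, SE 0.32, adjusted p = 0.00177), and Cd74, the invariant chain, at 77, 90.6, 107, 88 and 97 CPM and 141 to 1118 CPM with a median of 180.1 (log2 fold change 1.86, SE 0.52, adjusted p = 0.0139). Tumor 11 stood far above the other tumors for both (184 and 1118 CPM). The class I genes H2-K1, H2-D1, B2m and Tap1 did not pass the test, and H2-Q10, a secreted class I molecule of hepatocytes, fell by 0.38 (adjusted p = 0.00265), as did 1 more MHC gene without tumor 11.

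In bulk tissue, fewer cells of a type and less RNA per cell cannot be told apart, which holds for every marker below. Resident Kupffer cell markers were lower: 5 of 8 fell and none rose (median -1.14), and the list summed to 336 to 413 CPM in the low-risk livers and 167 to 314 CPM in the tumors. Besides Cd163, Timd4, a receptor for dying cells, went from 7.43, 9.34, 8.19, 7.53 and 5.9 CPM to 0.317 to 0.982 CPM with a median of 0.627 (log2 fold change -3.55, SE 0.25, adjusted p = 2.25e-06), Marco, a scavenger receptor, fell by 2.81 (adjusted p = 0.000133) and Clec4f by 0.97 (adjusted p = 0.00226). The general macrophage marker Adgre1 (F4/80) did not pass (0.07, adjusted p = 0.77). Markers of lipid-associated macrophages went the other way: 11 of 12 rose and 1 fell (median 2.93), and the list summed to 128 to 217 CPM in the low-risk livers and 381 to 1420.5 CPM in the tumors. Gpnmb (ENSMUSG00000029816, chr6:49036546-49070929, plus strand), a lysosomal glycoprotein, was at 0.284, 0.599, 0.699, 0.296 and 1.17 CPM in low-risk livers and 12.1 to 53.8 CPM with a median of 31.6 in tumors (log2 fold change 5.79, SE 0.54, adjusted p = 3.28e-05). Tumor 7, lowest for mitosis genes, was highest for Gpnmb. Trem2, the lipid receptor, rose by 2.78 (adjusted p = 5.42e-05), Itgax by 3.18 (adjusted p = 5.6e-05) and Mmp12, a macrophage elastase, by 3.99 (adjusted p = 0.000474). Fabp5, a binding protein that hepatocytes also express, was the member that fell (-1.64, adjusted p = 0.000742).

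Lymphocyte markers were low throughout. Of 10 tested T and NK cell markers of 11, 8 rose and none fell (median 1.32), and the list summed to 4.41 to 7.43 CPM in the low-risk livers and 7.8 to 20.1 CPM in the tumors. Cd8a, of cytotoxic T cells, was at 0.355, 0.838, 0.494, 0.329 and 0.177 CPM and 1.16 to 2.78 CPM with a median of 1.49 (log2 fold change 1.98, SE 0.36, adjusted p = 0.00102) and was the 1 member with every tumor above. The count was 4 without low-risk liver 9 or 10 and 5 without low-risk liver 4 or tumor 11. Of 8 tested B and plasma cell markers, Ighm fell (-0.99, adjusted p = 0.0452), a call lost when any 1 of low-risk livers 2, 4 and 10 or tumors 1, 3, 5, 7, 11 and 12 was left out, none rose (1 without low-risk liver 4 or tumor 7), and the list summed to 58.1 to 142 CPM in the low-risk livers and 42.9 to 119.7 CPM in the tumors. Ccr2, of inflammatory monocytes, rose by 1.93 (adjusted p = 0.000273) and Ly6c2 by 2.19 (adjusted p = 0.00151), the 2 of 5 tested monocyte and neutrophil markers that passed; the neutrophil genes S100a8, S100a9 and Csf3r did not.

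Stellate cells store vitamin A and, when activated, lay down collagen. Of 18 stellate cell and fibroblast markers 10 rose and 2 fell (median 0.69), and the list summed to 551 to 777 CPM in the low-risk livers and 611 to 1076 CPM in the tumors. Col1a2, a chain of type I collagen, was at 21, 17.5, 13.2, 11.1 and 17.8 CPM in low-risk livers and 39.3 to 84.3 CPM with a median of 58.2 in tumors (log2 fold change 1.88, SE 0.21, adjusted p = 6.25e-05). Loxl1, a collagen cross-linking enzyme, rose by 2.14 (adjusted p = 1.04e-05) and Lum, lumican, by 2.03 (adjusted p = 0.000276). Lrat, the enzyme of vitamin A storage, fell by 0.65 (adjusted p = 0.025) and Ecm1, made by resting stellate cells, by 0.85 (adjusted p = 0.00365). The count of lower markers was 1 without low-risk liver 9 or 10.

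Sinusoidal endothelial markers were lower and some capillary markers higher. Of 8 sinusoidal markers 4 fell and 1 rose (median -0.38), and the list summed to 368 to 419 CPM in the low-risk livers and 214 to 343 CPM in the tumors. Clec4g, a lectin of sinusoids, went from 41.2, 57.3, 49.9, 55.9 and 59.9 CPM to 13.8 to 38.3 CPM with a median of 24.7 (log2 fold change -0.99, SE 0.19, adjusted p = 0.00154), and Stab2, the hyaluronan receptor, fell by 0.51 (adjusted p = 0.00164), while Lyve1 rose by 1.03 (adjusted p = 0.00687). Of 11 markers of capillary and large-vessel endothelium 5 rose and 1 fell (median 0.31). Cd34, found on capillaries, was at 1.28, 1.44, 1.56, 2.24 and 1.7 CPM and 6.35 to 16.3 CPM with a median of 12.7 (log2 fold change 2.88, SE 0.26, adjusted p = 1.34e-05), Esm1, of tip cells, rose by 3.44 (adjusted p = 3.78e-05) and Aplnr, the apelin receptor, by 5.08 (adjusted p = 0.000943). The general endothelial markers Pecam1 (0.31, adjusted p = 0.057), Cdh5 (0.08, adjusted p = 0.621) and Plvap (-0.03, adjusted p = 0.861) did not pass.

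Ductal markers rose in 12 of 13 cases (median 2.74), and 11 had every tumor above; the list summed to 49.4 to 73.5 CPM in the low-risk livers and 183 to 885 CPM in the tumors. Ehf, an epithelial transcription factor, was at 0.746, 1.12, 0.576, 0.789 and 1.55 CPM in low-risk livers and 6.87 to 13 CPM with a median of 9.11 in tumors (log2 fold change 3.35, SE 0.23, adjusted p = 2.22e-06), with no overlap. Cldn4, a tight junction protein, rose by 4.8 (adjusted p = 4.17e-05), Krt19, a bile duct keratin, by 2.02 (adjusted p = 0.00061) and Sox9 by 1.15 (adjusted p = 0.000156). Spp1, osteopontin, which is also on the macrophage list, made up most of the sum (31 to 51.5 CPM in low-risk livers, 124 to 773 in tumors; 3.16, adjusted p = 0.000296), and Epcam and Sox9 are also on the oncofetal list. None of the ductal, macrophage, Kupffer cell or sinusoidal markers was at 0 in any of the 12 libraries; Cd3e, of T cells, was at 0 in low-risk livers 8 and 9, Timp1, of activated stellate cells, in 4 and 8, and Aplnr in 4, 8 and 10.

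Markers of other tissues were mostly low, and where their RNA came from was not tested. Pancreatic acinar markers summed to 0.120 to 14.6 CPM in low-risk livers and 0.0348 to 4.22 CPM in tumors, with low-risk livers 9 and 10 carrying most (Cpa1 at 2.17 and 2.16 CPM, 0 in the other 3), and 6 of the 9 were too low to be tested. Adipocyte markers summed to 0.123 to 4.3 CPM in the low-risk livers and 0.317 to 40.6 CPM in the tumors, with Adipoq, adiponectin, at 8.79 CPM in tumor 5 and 0 in low-risk livers 8 and 9 and tumor 11. Plin1 and Cfd, the 2 adipocyte markers that rose of 3 tested (3.32, adjusted p = 0.0276 and 3.27, adjusted p = 0.0229), both lost that call without low-risk liver 4 or 9, and Plin1 also without low-risk liver 8 or 10 or tumor 5. Ttn, the giant protein of striated muscle, was at 61.3 and 135 CPM in tumors 3 and 5, at 1.6 to 1.9 CPM in the other tumors and at 0.565 to 1.2 in low-risk livers (5.13, adjusted p = 0.0223), a call lost without low-risk liver 10. Erythroid markers were not higher in tumors, 1 of 5 falling (Alas2, -0.20, adjusted p = 0.0487), a call lost when any 1 of low-risk livers 2, 4, 8 and 9 or tumors 3, 5, 6, 7 and 11 was left out. The 1 acinar marker that fell, Cela2a (-2.83, adjusted p = 0.00761), lost its call without tumor 11. The part of these cell markers in the differences reported for other genes was not tested.

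Further groups gave single strong genes. Noct (ENSMUSG00000023087, chr3:51224447-51251644, plus strand), a rhythmic phosphatase of NADPH, was at 6.79, 11.3, 8.48, 5.29 and 3.57 CPM in low-risk livers and 122 to 188 CPM with a median of 139 in tumors (log2 fold change 4.39, SE 0.27, adjusted p = 2.2e-06), with all 7 tumors within a narrow band far above the others. It was the 1 of 19 circadian clock genes that rose. Of the others 4 fell (list median -0.38), among them Dbp (-2.32, adjusted p = 0.0323), whose low-risk levels were 59.6, 58.7, 6.46, 6.81 and 3.82 CPM; livers 2 and 4 stood apart from the rest for Dbp, Per3 and Ciart, genes that swing through the day, and the labels used here give no time of sampling. The count of lower clock genes was 1 without low-risk liver 2, and 2 without low-risk liver 4 or tumor 6, 11 or 12.

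Of 7 metallothionein and zinc genes 3 rose and 2 fell (median 1.36; 1 lower without low-risk liver 8, 9 or 10). Slc39a4, the zinc importer ZIP4, was at 10.5, 14.6, 37.2, 9.34 and 14.2 CPM and 40.8 to 346 CPM with a median of 201 (log2 fold change 3.40, SE 0.58, adjusted p = 0.000842). Mt2, a metal-binding protein, went from 0.675, 0.16, 0.699, 0.427 and 0.883 CPM to 0.968 to 18.3 CPM with a median of 3.37 (3.27, adjusted p = 0.00302), with tumor 7 highest at 18.3 CPM, and Mt1 rose with it (2.34, adjusted p = 0.0116). Of 11 DNA methylation and Polycomb genes 5 rose and none fell (median 0.16; 1 lower without tumor 12), led by Uhrf1 and Hells, a chromatin remodeller (1.74, adjusted p = 0.0007), with Ezh2, the Polycomb methyltransferase, at 4.48, 3.79, 4.4, 4.7 and 3.57 CPM and 4.2 to 7.55 CPM with a median of 5.46 (0.54, adjusted p = 0.0135).

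Tumors were not alike in how far they lay from low-risk liver. Of the 3319 genes that rose, tumor 7 was above the low-risk range for 2230 (67.2%), tumor 6 for 2805 (84.5%), and the other 5 tumors for 2836 to 3151 (85.4% to 94.9%). Of the 2386 that fell, tumor 7 was below the range for 1872 (78.5%), tumor 6 for 1986 (83.2%) and the others for 2166 to 2295 (90.8% to 96.2%). These counts describe the genes that this comparison chose and carry no test. Tumor 7 was closest to low-risk liver across genes (correlation of log2 CPM with the low-risk mean 0.980) and tumor 11 farthest (0.940). Each tumor had features of its own. Tumor 12 held the most H19 (1493 CPM), Ly6d (330.5 CPM) and Fabp4 (179 CPM, others 11.6 to 37.8), tumor 11 the most Spink1, Nqo1 (109 CPM) and class II genes, and tumor 1 the most Cyp2a4 (513 CPM) and Ptgds, a prostaglandin synthase (94.4 CPM, 1.21 in tumor 7).

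Vehicle and uninvolved livers of the same age place these levels. They share no test with the comparison here, and their values are given as ranges over 6 vehicle livers and 5 uninvolved samples. The uninvolved libraries carry numbers that tumor libraries also carry, and the labels do not say whether they share mice. Mitochondrial genes took 4.20% to 5.85% of counts in uninvolved libraries and 2.64% to 3.46% in tumors. Genes detected numbered 24676 to 28715 in uninvolved libraries and 22609 to 23868 in tumors. Vehicle livers lay with the low-risk group: Spink1 was at 0 to 0.0823 CPM, Slc7a11 at 0 to 0.0438, Gpnmb at 0.518 to 1.67, Hsd3b5 at 194 to 336, Cd163 at 13.8 to 28 and Mki67 at 1.67 to 8.11 CPM. Uninvolved livers labelled high risk held tumor-like levels for several of them: Gpnmb was at 23.8 to 93.5 CPM, Noct at 81.6 to 403, Hsd3b5 at 2.88 to 17.9 and Cd163 at 0.644 to 1.5 CPM. Other genes also overlapped the tumors' range, with Spink1 at 0.20 to 4.73 CPM, Slc7a11 at 2.45 to 8.35 and Mki67 at 7.59 to 38.5 CPM.

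High-risk and low-risk TBT livers of 5 months were compared in the same way. That comparison shares no library with the tumor comparison. There, 3762 of 15842 genes rose in high-risk against low-risk TBT livers (23.7%) and 3270 fell (20.6%), by the same test with sequencing batch as a covariate. Within batch 1 alone, 3098 genes were called in place of 7032. Some 5-month libraries deviated: high-risk 10 had 39669 genes detected, and mitochondrial genes took 14.5% of counts in high-risk 15 and 11.2% in low-risk 16. Without these libraries 6531 genes were called. Of the genes tested in both, 4241 were called in both, which is 75.2% of the tumor calls and 61.8% of the 5-month calls, and 4229 of them (99.7%) had the same sign. Across 15267 genes, which are not independent replicates, the log2 fold changes had a Pearson correlation of 0.840 and a Spearman correlation of 0.780.

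Group by group the 5-month counts were close to those in tumors for some lists: mitosis had 22 higher and 0 lower, cholesterol synthesis 0 higher and 23 lower, lipid-associated macrophages 11 higher and 1 lower and interferon-stimulated genes 12 higher and 0 lower. The perivenous list had 0 higher and 11 lower at 5 months against 0 higher and 1 lower in tumors, and male-biased genes 0 higher and 14 lower against 1 higher and 8 lower; whether these counts differ was not tested. Gene by gene, the 5-month fold change was 3.86 for Noct (4.39 in tumors), 5.00 for Gpnmb (5.79), -5.49 for Hsd3b5 (-4.79), 5.98 for Slc7a11 (6.18), 3.81 for Spink1 (8.27) and 3.09 for H19 (7.79). Afp did not pass the test at 5 months (-0.00, adjusted p = 0.994) and rose by 1.24 in tumors, and Glul fell at 5 months (-1.89, adjusted p = 7.19e-06).

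The difference between the 2 fold changes was tested in 1 fit over both ages. Only 4 of 15842 genes passed (0.0252%), against 981 at an unadjusted p under 0.05, and DESeq2 called 18. On simulated counts this test recovered 48 of 100 genes changed 2-fold and 76 of 100 changed 4-fold, so a low count does not show that the 2 comparisons are equal. Unc13b, a priming factor of vesicle release, stood at 36.8, 32.6, 45.9, 37.8 and 24.3 CPM in low-risk livers and 17.6 to 23.2 CPM with a median of 20.2 in tumors; it fell in tumors (-0.75) and rose at 5 months (0.61), a difference of -1.38 (SE 0.26, adjusted p = 0.0355). Serpina12, the adipokine vaspin, stood at 137, 119, 146, 159 and 121 CPM and 35.1 to 129 CPM with a median of 54.3; it fell in both, by 1.01 in tumors and by 3.61 at 5 months, a difference of 2.59 (SE 0.49, adjusted p = 0.0376). Dsg1c, a desmosomal cadherin, was not called in tumors (0.83, adjusted p = 0.0967) and fell by 1.59 at 5 months, a difference of 2.41 (SE 0.45, adjusted p = 0.0355). Cyp4a31, a fatty acid hydroxylase outside the rule for named genes and chosen after its values were seen, was not called in tumors (-0.66, adjusted p = 0.255) and rose by 2.39 at 5 months, a difference of -3.07 (SE 0.59, adjusted p = 0.0376). With 5-month livers of batch 1 only, or with no filter on low counts, 0 genes passed. Leaving out 10-month libraries gave 0 to 5, and leaving out the deviating 5-month libraries gave 6.

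**Figure D4:**
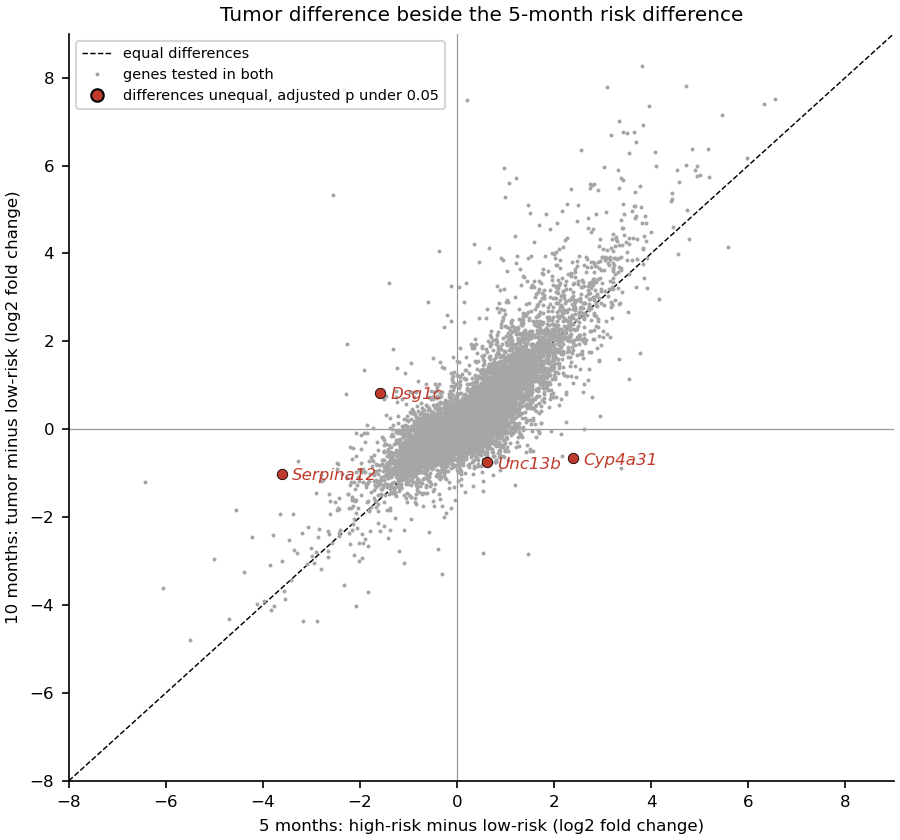
Log2 fold change of each gene tested in both comparisons, high-risk against low-risk TBT liver at 5 months (x axis) and tumor against low-risk TBT liver at 10 months (y axis); the dashed line marks equal values and red points the 4 genes whose difference passed the test. The cloud of 15267 genes follows the dashed line (Pearson correlation 0.840).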

How the data were processed

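Total RNA was extracted with a column kit and DNase, and libraries were made with a stranded total RNA kit, per the labels' protocols. The deposited values are counts per gene, made by the authors with Trim Galore, HISAT2 on mm10 and featureCounts, per the submitters' processing notes; the file name adds a batch adjustment of counts with ComBat-seq. Its settings, the tools' versions and the strand setting of the counting are not given in the sources used here, so reads of antisense pairs may be mixed. Counts adjusted for batch can carry less spread than raw counts, and each SE and adjusted p here refers to the adjusted counts. The values were whole numbers for 55536 genes, and every gene ID matched GENCODE M21.

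Groups came from the labels. Members and gene lists were chosen with earlier results of these data known. The main test was edgeR 4.0.16 in R 4.3.3 (TMM scaling, its default filter on low counts, robust quasi-likelihood fit) on the 12 libraries. Genes were called at an adjusted p under 0.05. The 5-month test and the test of the difference between ages came from 1 fit of these 12 and the 5-month TBT libraries. That fit added sequencing batch as a covariate. CPM were scaled by TMM over all 10-month libraries, and figures and the search for samples far from their group used log2(CPM + 0.5). Named genes were the 10 largest changes each way that averaged 5 CPM or more with no overlap between groups. Up to 3 called members of each list were added. So were 12 genes named whatever their result here, also chosen with earlier results of these data known. The 8 genes that varied most among tumors and genes of the difference test completed the set. Other list members were named for their role after their values were seen. Promoter windows were RefSeq's (GRCm38.p6), from 250 bases before to 50 after the start. Alternatives were other size factors, no filter, DESeq2 1.42.0, a fit of all 10-month groups, protein-coding genes only and other batch handling. Others left out each tumor and low-risk library of 10 months in turn, or the deviating 5-month libraries. On simulated counts with 200 changed genes among 15577, the main test recovered 70 of 100 changed 2-fold and 91 of 100 changed 4-fold, with 13 false calls. The simulations changed few genes, evenly in both directions, and gave each gene the same spread in every group. The real comparison had far more calls and more spread among tumors, so these rates may not carry over to it. A tumor label on 1 vehicle library made it a group of its own, so it was left out of all tests. Some list members that were tested and counted are not reported here by name.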

Additional observations from a re-analysis of the deposited data

Results flagged for a closer look

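Of 304 groups examined (each named gene in the 5 low-risk livers and in the 7 tumors), 24 held a library far from the rest of its group. For normally distributed values, chance gives about 1 in 20 groups. That rate does not apply where all libraries but 1 are at 0, as for Lrtm2 and Igf2 in low-risk livers. There, any read in the remaining library gives a flag. Tumor 7 was such a library for 7 genes, each time low: Mki67 (6.34 CPM), Nusap1 (1.52), Tpx2 (1.03) and Uhrf1 (1.07), of the cell cycle, Gsta1 (3.35) and Gstm3 (50.9), of glutathione conjugation, and Cyp2c55 (1.74). Tumor 11 stood apart for the class II regulator Ciita (20.9 CPM) and H2-Eb1 (184 CPM), both high, and for Cd163 (0.282 CPM), low. High single tumors were tumor 12 for Fabp4 (179 CPM) and Hk2 (25.9 CPM) and tumor 6 for Rian (97.3 CPM). Tumor 3 stood low for Lyve1, a hyaluronan receptor (6.9 CPM).

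Among low-risk livers, liver 8 stood high for H19 (7.78 CPM), Mup2 (144 CPM) and Lrtm2 (0.658 CPM) and apart for Apoc3 (1294 CPM). Liver 10 stood apart for Sox4 (2.4 CPM) and Cxcl10 (3.07 CPM), liver 9 for Ifi27l2b (3.91 CPM), liver 2 for Adipoq (1.17 CPM) and Igf2 (0.0355 CPM), and liver 4 for Ptgds (2.2 CPM).

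The tumor and 5-month differences were unequal by a test of that difference for Unc13b (-1.38 on the log2 scale), Dsg1c (2.41), Serpina12 (2.59) and Cyp4a31 (-3.07).

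The vehicle library labelled as a tumor had 11508759 counts, with 14.1% from mitochondrial genes, and was in no comparison. Of the 3319 genes that rose in the TBT tumors, it held 2338 (70.4%) above all 6 vehicle livers, against 31.9% of all genes tested. Of the 2386 that fell, it held 2015 (84.5%) below all vehicle livers, against 46.3% of all. H19 was at 353 CPM in it, Slc7a11 at 20.8, Cyp2a4 at 222 and Mki67 at 55.4 CPM, each above every vehicle liver. With 1 library there is no test.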

How the results depend on the processing

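The count of genes called between tumors and low-risk livers, 5705, ran from 5281 to 6260 with RLE size factors, no filter, DESeq2, all 10-month groups in 1 fit or protein-coding genes only, and from 4667 (without low-risk liver 9) to 6286 (without tumor 7) when 1 library was left out. No scaling moved the median fold change by more than 0.02. Of 137 named genes called, 126 stayed called in the same direction under every alternative that tested them. Not all were tested in each: 134 were with protein-coding genes only and 135 without tumor 11. Those lost under at least 1 included Myc, Ighm, Alas2, Cyp2e1, Hlf, Cfd, Plin1, Afp, Ttn and Rian. Of the genes not called, 4 changed sign when 1 library was left out: Igkc ran from -0.35 to 0.0386, Prss2 from -1.48 to 0.45, Cela3b from -0.57 to 0.51 and Gpc3 from -0.0779 (without tumor 6) to 0.67; the cause was not tested. The test of the difference between ages called 4 genes, 18 with DESeq2, 0 with 5-month livers of batch 1 only, 0 with no filter and 0 to 5 without 1 library. Without the deviating 5-month libraries that test called 6 genes. The 5-month comparison called 7032 genes, 6531 without those libraries and 3098 within batch 1, where fewer samples were tested. No paired analysis was possible because tumors and low-risk livers share no replicate number. Counts below the filter limit what can be said of Igf2, Dlk1 and most acinar markers.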

Other observations

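Gene families outside the lists moved as follows. Of 70 clustered histone genes, 47 were tested, 32 rose and 1 fell (median 1.17), and they summed to 410.4 to 513 CPM in the low-risk livers and 417 to 719 CPM in the tumors. These mRNAs lack long poly(A) tails and are measured here because total RNA was sequenced. Of 44 collagen genes, 32 were tested, 22 rose and 4 fell (median 1.34), while the family's sum overlapped between groups, at 1663 to 1920.0 CPM in the low-risk livers and 1638 to 2188 CPM in the tumors. Serpina1 paralogs, which encode alpha-1 antitrypsins and are near-identical copies, fell in 3 of 5 cases and rose in none (median -0.88). Mitochondrially encoded genes fell in 3 of 31 cases and rose in none (median -0.12).

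By gene class, 3120 of 13485 protein-coding genes rose and 2153 fell, while long noncoding RNAs and other transcripts had 143 higher and 180 lower of 1482. Of 97 small noncoding RNAs 13 rose and 5 fell.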
